A study of Mus musculus with 12 samples.

Results

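Nuclear genes for the subunits of the oxidative phosphorylation complexes were followed in mouse forelimb buds that lacked, by their labels, either Tbx3 or Hand2. Members were the protein-coding genes whose GRCm38 symbol starts with Nduf followed by a, b, c, s or v and a digit, with Uqcr, with Cox followed by a digit from 4 to 8, or with Atp5. Genes of the mitochondrial genome and Ndufaf assembly factors were left out. The rule found 80 genes of the 53465 in the files: 37 named for complex I, 8 for complex III, 18 for complex IV and 17 for complex V. The rule uses symbols alone and no expression value.

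Each of the 4 groups held 3 libraries, and each library came from 1 pair of forelimb buds of a Swiss albino embryo. The Tbx3 series (E9.75 to E10.0, 28 to 31 somites) compared wild type with Tbx3ΔVenus/ΔVenus embryos, in which a Venus reporter with a transcription stop sits at the Tbx3 start codon on both copies. The Hand2 series (E10 to E10.25, 31 to 33 somites) compared Prrx1-Cre;Hand2+/+ with Prrx1-Cre;Hand2Δ/Δc embryos. Prrx1-Cre acts in limb mesenchyme, so ectoderm, blood and vessels do not delete the conditional allele, and the wild-type group of that series carries Prrx1-Cre too. Stage, targeted gene, kind of allele and depth differ together between the series. The question for both was how gene expression changes early in the limb bud when one of these transcription factors is lost.

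Oxidative phosphorylation uses electrons from NADH and succinate to pump protons across the inner mitochondrial membrane, and the returning protons drive ATP synthesis. Complexes I, III and IV pump, complex V makes ATP, and each is built from nuclear gene products together with proteins that the mitochondrial genome encodes. Some complex IV subunits exist as a common form and a form restricted to muscle, lung or testis. Early limb buds are small, fast-growing tissues with few vessels, in which glycolysis is known to be active.

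Total counts ran from 23311692 to 31764847 in the Tbx3 series and from 60183822 to 68568005 in the Hand2 series. Levels are given as CPM, which are counts scaled to a common library size with TMM factors within a series, and a gene is called at an adjusted p under 0.05 in edgeR's quasi-likelihood test over all genes. Hand2 was at 122 ± 3.34 CPM (SD, n = 3) in its wild type and 0.926 ± 1.11 CPM in the Hand2-deficient libraries. Tbx3 was at 78.2 ± 1.00 CPM in its wild type and 77.7 ± 3.92 CPM in the libraries labelled Tbx3-deficient, so the Tbx3 count did not check that label. All 3 Tbx3 wild-type libraries were female by Xist and Y-linked counts, while replicates 1 and 2 of the libraries labelled Tbx3-deficient were male. Sex was uneven in the Hand2 series too, where replicate 3 of the wild type and replicates 1 and 3 of the deficient libraries were male. Hand2-deficient replicate 1 had 5.37% of its counts on 1 gene. Limb mesenchyme markers summed to between 1300 and 2010 CPM in every library, and cardiac muscle markers to 19.4 CPM at most. A bulk level cannot tell fewer cells of a type from less RNA per cell.

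In wild-type buds the common subunits were all expressed. Summed over all 80 members, levels came to 0.889% to 0.928% of the TMM-scaled library size in the 3 Tbx3 wild-type libraries. In the 3 Hand2 wild-type libraries they came to 0.893% to 0.912%. Complex V took the largest part of this, with 4375 to 4462 CPM in the Tbx3 wild type, against 2264 to 2453 CPM for complex I, 1420 to 1529 CPM for complex IV and 824.2 to 836.4 CPM for complex III.

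Levels of different genes were compared per length, as CPM per kb of the shortest transcript that the annotation marks as principal. In the Tbx3 wild type the median over subunits, without restricted isoforms and factors, was 72.5 CPM per kb for complex I, 123 for complex III, 188 for complex IV and 180 for complex V. The highest was Atp5b, the catalytic beta subunit of the ATP synthase, at 724 CPM per kb, followed within complex V by Atp5g3 at 471. Cox4i1, the common form of subunit 4, led complex IV at 360 CPM per kb, and Ndufa4, named for complex I but now known as a complex IV subunit, stood at 248. The 8 complex III genes lay within a 2.03-fold range, from Uqcrc2 at 86.6 to Uqcrq at 176 CPM per kb. The 36 complex I genes spread over 28.9-fold, with Ndufb4 lowest at 8.59 CPM per kb and Ndufv3 next at 22.4. The low end of that range rests on how reads were shared out. A processed copy with the same coding sequence, Ndufb4c, held 25.7 CPM in the Tbx3 wild type against 8.34 for Ndufb4.

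**Figure D1:**
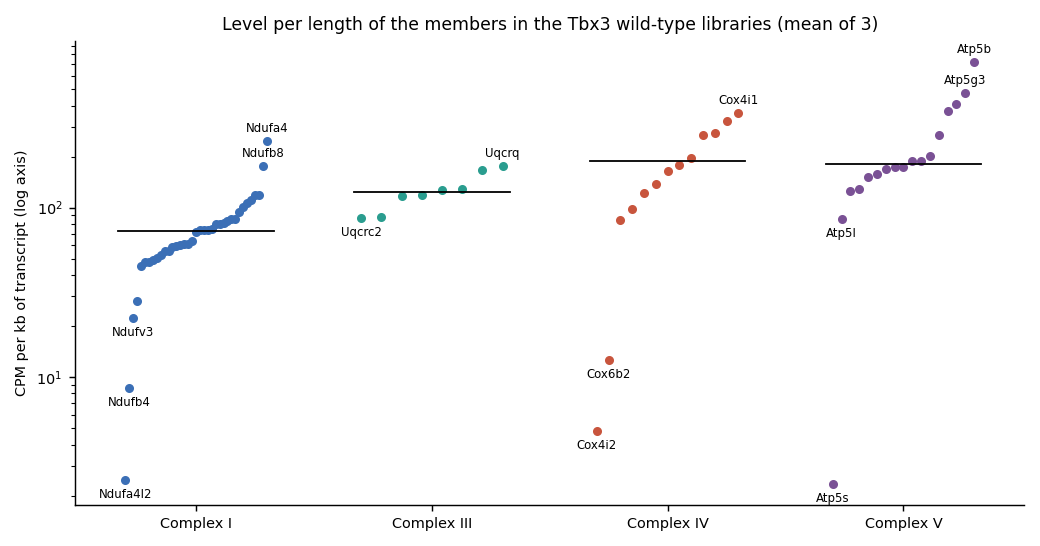
Mean level per length of each member above 0.5 CPM in the Tbx3 wild type (CPM per kb of transcript, log axis, n = 3 libraries), sorted within each complex; the line is the median without restricted isoforms and factors. Atp5b stands highest at 724 CPM per kb, and Ndufa4l2, Cox4i2 and Atp5s stand lowest in their complexes. Cox6b2, at 12.6 CPM per kb, is next above Cox4i2.

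The muscle and testis forms of complex IV subunits were close to absent. Cox6a2, Cox8b, Cox8c and Cox7b2 had at most 3 counts in any library and were at 0 in 9 to 11 of the 12 libraries, and were not tested. Cox7a1, the heart and muscle form of subunit 7a, had 31 counts over the whole Tbx3 series and 59 over the Hand2 series, and was tested in the Hand2 series alone. Cox6b2, a testis form, was the exception among them at 4.45 to 7.87 CPM. Per length, it made 6.28% to 7.70% of the summed CPM per kb of Cox6b1 and Cox6b2 as group means. Of the 80 members, 75 passed the filter on low counts in the Tbx3 comparison, and 76 in that of Hand2.

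In the libraries labelled Tbx3-deficient the subunit genes stayed close to wild type, and edgeR's quasi-likelihood test called 0 of 75, against 1.01% of all 15130 genes tested. At an unadjusted p under 0.05 there were 5 of 75, against 14.3% of all genes. The median log2 fold change over the 75 was 0.00 and 38 lay above 0, beside 49.1% of all genes. The 95% interval lay wholly between -0.5 and 0.5, which is within 1.41-fold either way, for 71 of 75 members, beside 61.6% of all genes. Among the 7703 genes with a mean of at least 20 CPM, this held for 7179. DESeq2 called 3 members, which are Cox4i2, Ndufa4l2 and Ndufv3, beside 551 of all 15130 genes.

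Complex by complex, the median log2 fold changes were 0.00 for complex I (37 genes), -0.04 for complex III (8), -0.01 for complex IV (13) and 0.01 for complex V (17). The 7 core subunits of complex I, which carry the flavin and the iron-sulfur clusters, lay between -0.10 and 0.01. Atp5b was at 1370, 1410 and 1380 CPM in wild type and at 1300, 1410 and 1440 CPM in the libraries labelled Tbx3-deficient, with overlapping groups and a log2 fold change of -0.00 (95% interval -0.12 to 0.11). Counting complex III as well, the intervals of all 10 core and both catalytic subunits lay within -0.5 to 0.5. Per library, the median deviation of complex I members from the wild-type mean ran from -0.07 to 0.06 in wild type and from -0.08 to 0.03 in the labelled libraries. The wild-type libraries differed among themselves by as much as the groups did.

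**Figure D2:**
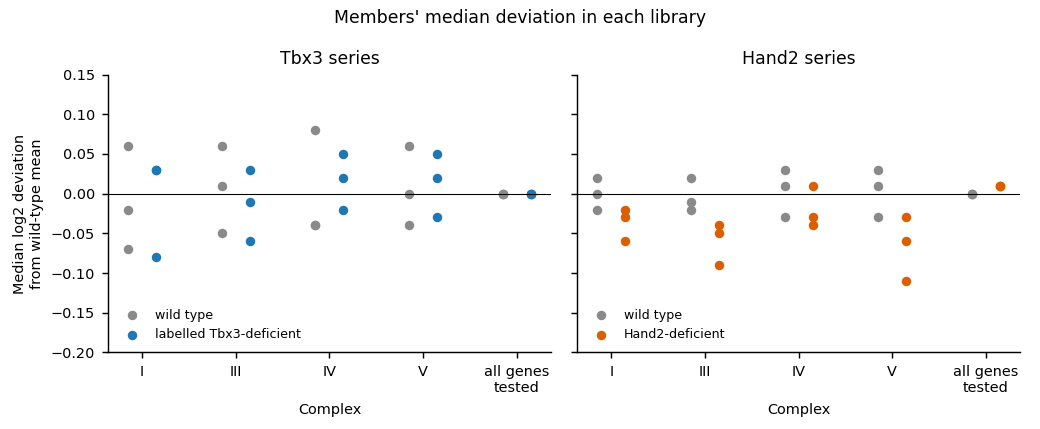
Median over tested members of the log2 deviation from the wild-type mean, 1 point per library, by complex and for all genes tested, in the Tbx3 series (left) and the Hand2 series (right). The 2 groups of the Tbx3 series overlap in every complex. In the Hand2 series the deficient libraries lie between -0.11 and 0.01.

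The members with the highest fold changes in the Tbx3 series were isoforms rather than common subunits. Cox4i2 (chr2:152754173-152765037), the lung-enriched and oxygen-regulated form of complex IV subunit 4, was at 4.05, 3.73 and 2.69 CPM in wild type and at 5.49, 8.46 and 8.15 CPM in the libraries labelled Tbx3-deficient. The groups did not overlap, and the log2 fold change was 1.08 (SE 0.224, 95% interval 0.56 to 1.60) with an adjusted p of 0.0831 in edgeR's test, which misses the threshold. The common form Cox4i1 was at 261, 258 and 286 CPM in wild type and 253, 271 and 272 CPM in the labelled libraries. As a share of the 2 forms' summed CPM per kb, Cox4i2 made up 1.33% ± 0.326 (SD, n = 3) in wild type and 2.75% ± 0.50 in the labelled libraries.

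Ndufa4l2 (chr10:127514967-127517154), a paralog of Ndufa4 known as a hypoxia-induced gene, showed the same order of groups. It was at 2.52, 2.38 and 2.00 CPM in wild type and at 3.22, 6.75 and 5.18 CPM in the labelled libraries, with replicate 1 the lowest of these. Its log2 fold change was 1.14 (SE 0.276) with an adjusted p of 0.118 in edgeR's test. Ndufa4 itself was at 104, 107 and 126 CPM against 106, 120 and 109 CPM. Both rare forms thus lay well below their common partner in every library.

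Ndufv3 (chr17:31520115-31531331), the small subunit of the NADH-binding flavoprotein, was the common subunit with the highest fold change. It was at 34.6, 35.5 and 36.4 CPM in wild type and at 40.0, 53.3 and 49.9 CPM in the labelled libraries, without overlap, at a log2 fold change of 0.43 (SE 0.10, edgeR adjusted p 0.11). Its partners in the same module, Ndufv1 and Ndufv2, both had log2 fold changes of -0.02. Ndufa7, an accessory subunit, was at 56.5, 54.5 and 58.0 CPM against 64.3, 63.6 and 67.1 CPM, a log2 fold change of 0.21 with an edgeR adjusted p of 0.11. Ndufa6 completed the 5 members at an unadjusted p under 0.05, at 0.14.

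Leaving out replicate 1 of the libraries labelled Tbx3-deficient brought Cox4i2, Ndufa4l2 and Ndufv3 past the threshold, with edgeR adjusted p of 0.0405, 0.0308 and 0.00954. With sex as a covariate their log2 fold changes were 1.22, 1.17 and 0.49, with edgeR adjusted p of 0.314, 0.498 and 0.405. That fit rests on 1 female library among the labelled ones, since all wild-type libraries were female.

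At the low end, Ndufs6, an iron-sulfur module accessory subunit, had a log2 fold change of -0.16 and Atp5e, the epsilon subunit of the ATP synthase stalk, of -0.15. Their adjusted p in edgeR's test were 0.630 and 0.632, and without wild-type replicate 3 the value of Ndufs6 was 0.01. Cox7b, encoded on the X chromosome, had the widest spread among the common complex IV subunits. It was at 125, 82.6 and 88.8 CPM in wild type and 172, 98.2 and 83.6 CPM in the labelled libraries, so that replicate 1 of each group stood above the other two. Cox6a1, which lies 4.32 Mb from Tbx3 on chromosome 5, was at 150, 148 and 161 CPM against 134, 146 and 150 CPM, a log2 fold change of -0.09.

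The common partners of the muscle forms lay close to wild type. Cox7a2, the common form of subunit 7a, was at 87.2, 90.3 and 93.1 CPM in wild type and 84.8, 93.4 and 90.4 CPM in the labelled libraries (log2 fold change -0.01). Cox8a, the common form of the smallest complex IV subunit, was at 143, 144 and 166 CPM against 153, 167 and 164 CPM (0.09). Uqcrh, the hinge protein of complex III, was at 88.3, 92.4 and 93.7 CPM against 93.3, 90.9 and 81.9 CPM (-0.04). The groups overlapped for all 3 genes.

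Without overlap between the groups, 5 members were higher and 1, Ndufs8 of the complex I core, was lower. These counts stand beside 10.7% of all genes higher and 9.95% lower without overlap.

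**Figure D3:**
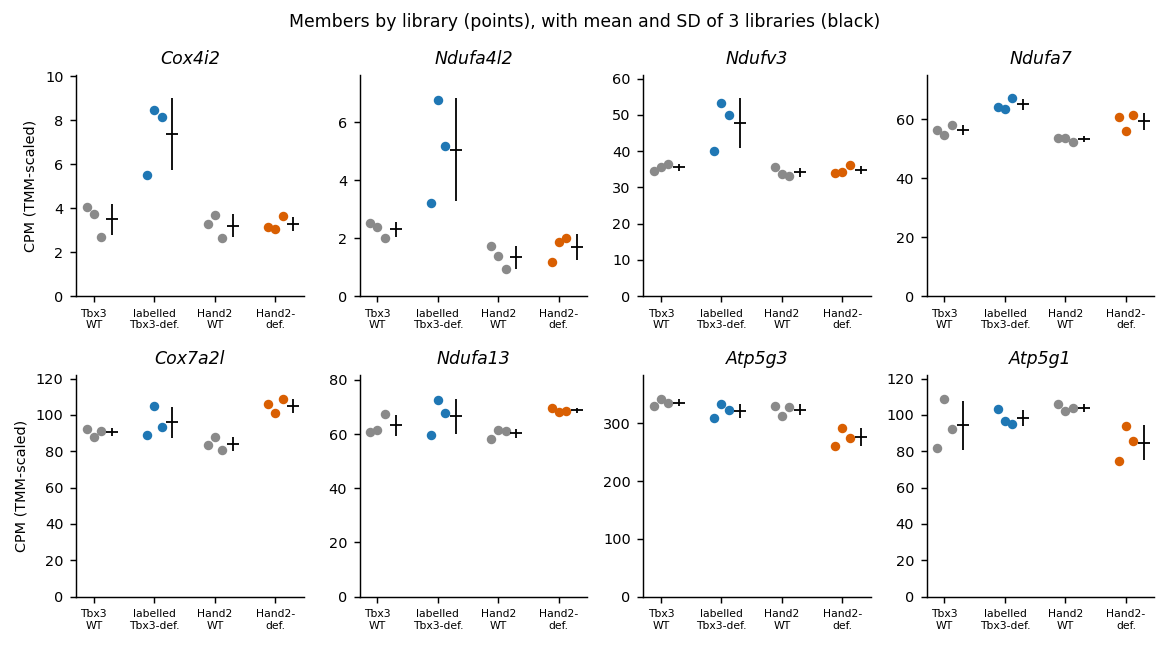
CPM of 8 members in each of the 12 libraries (points, replicates 1 to 3 from left to right), with mean and SD of each group of 3 in black, on axes from 0. Cox4i2, Ndufa4l2, Ndufv3 and Ndufa7 are higher in all 3 libraries labelled Tbx3-deficient than in their wild type. Cox7a2l and Ndufa13 are higher, and Atp5g3 and Atp5g1 lower, in all 3 Hand2-deficient libraries.

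Other genes of the pathway were set beside the members, from lists written for this purpose. None of 4 complex II genes, 13 genes of ubiquinone synthesis and cytochrome c, 16 complex I assembly factors, 16 regulators of mitochondrial biogenesis and 78 mitochondrial ribosomal protein genes was called in the Tbx3 series. The medians of these lists lay between -0.07 and 0.03 on the log2 scale. The 13 mitochondrially encoded subunits also had 0 calls, but their median log2 fold change was -0.41, 7 had an unadjusted p under 0.05, and all 13 lay between -0.63 and -0.27. They summed to 9840 to 13000 CPM in wild type and 7440 to 8900 CPM in the labelled libraries, without overlap. mt-Co1, the catalytic subunit of complex IV, was at 2730, 2700 and 3650 CPM against 2620, 2020 and 2050 CPM. Whether nuclear and mitochondrial subunits differed in their change was not tested.

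Genes of the response to hypoxia-inducible factors (HIF) were set beside them too, and 9 of 13 tested rose and 0 fell in the libraries labelled Tbx3-deficient, where 58 of the 7703 genes at 20 CPM or more rose, with a median log2 fold change of 0.83. This list was written with earlier results of these data known. Among them, Pdk1, a kinase of pyruvate dehydrogenase, was at 61.1, 85.0 and 65.8 CPM in wild type and 154, 221 and 232 CPM in the labelled libraries (log2 fold change 1.52, edgeR adjusted p 0.0149). Replicate 1 was the lowest of the labelled libraries for Pdk1, as it was for Cox4i2, Ndufa4l2 and Ndufv3. The list summed to 3250 to 3630 CPM in wild type and 4640 to 6450 CPM in the labelled libraries. Cox4i2 and Ndufa4l2 are also known as pericyte genes. Of 6 pericyte markers 5 were tested and 0 called, at a median of 0.13, and they summed to 278 to 291 CPM against 286 to 297 CPM. The tested pericyte markers went both ways, with log2 fold changes from -1.92 to 0.94. Rgs5, on the higher side, was at 2.35, 3.55 and 3.11 CPM in wild type and 3.17, 7.13 and 7.0 CPM in the labelled libraries. Markers of some other cell types also lay higher in the labelled libraries without overlap, though 0 of them were called. Macrophage markers, of which 2 of 7 were tested, summed to 1.41 to 3.23 CPM in wild type and 4.95 to 6.23 CPM in the labelled libraries. Neural crest markers summed to 43.9 to 51.3 CPM against 61.0 to 85.8 CPM, and body wall markers to 6.63 to 35.8 CPM against 36.6 to 70.5 CPM. Others lay lower without overlap. Limb mesenchyme markers summed to 1530 to 1580 CPM against 1300 to 1480 CPM, with 1 of 6 lower. Neuron markers, of which 2 of 3 were tested, summed to 41.6 to 56.5 CPM against 24 to 41.4 CPM, with 0 called. No marker of these lists was under 0.1 CPM in every library. The part of these genes in the values of Cox4i2 and Ndufa4l2 was not tested.

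**Figure D4:**
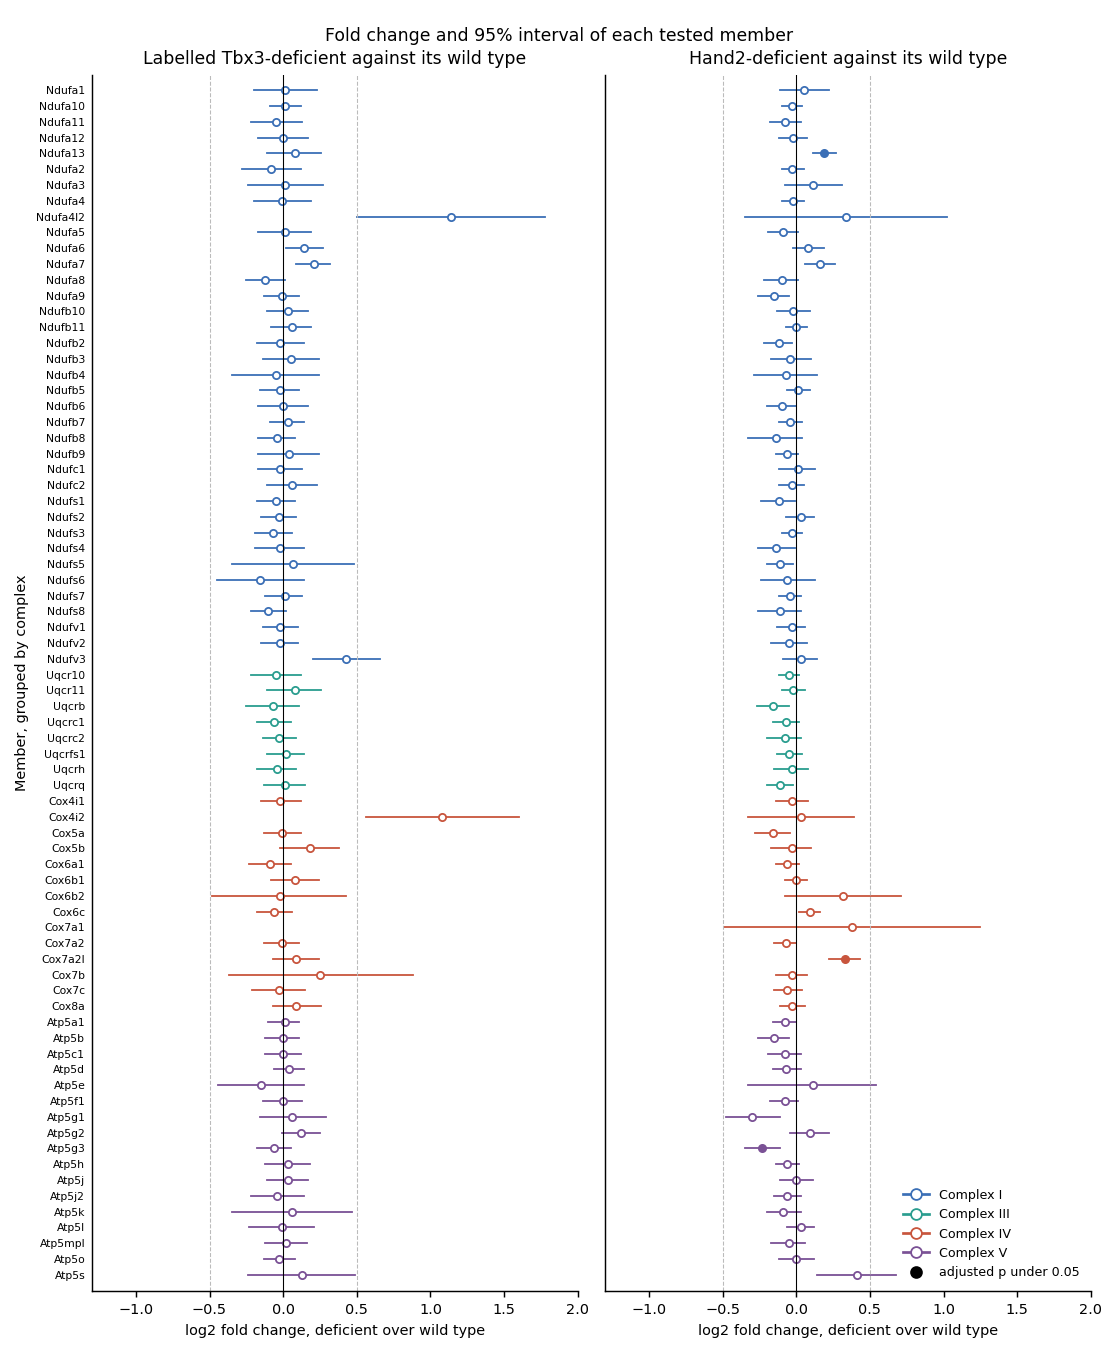
Log2 fold change (points) with its 95% interval (lines) for every tested member, grouped and coloured by complex, in the Tbx3 series (left) and the Hand2 series (right); filled points have an adjusted p under 0.05 and dashed lines mark -0.5 and 0.5. Most members lie near 0 in both series, Cox4i2 and Ndufa4l2 lie above 1 on the left alone, and the 3 filled points are Ndufa13, Cox7a2l and Atp5g3 on the right.

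In the Hand2-deficient libraries 3 of 76 members passed the test, against 10.5% of all 17488 genes tested. Cox7a2l and Ndufa13 rose, beside 4.68% of all genes, and Atp5g3 fell, beside 5.82%. At an unadjusted p under 0.05 there were 17 of 76, against 32.4% of all genes. The median log2 fold change was -0.04, with 20 of 76 members above 0, while 52.1% of all genes lay above 0. Among the 7753 genes with a mean of at least 20 CPM, the median was -0.06 and 2629 lay above 0, so well-expressed genes in general sat slightly below 0. The interval lay within -0.5 to 0.5 for 71 of 76 members, beside 55.6% of all genes and 7106 of those 7753.

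By complex, the medians were -0.03 for complex I, -0.06 for complex III, -0.03 for complex IV and -0.06 for complex V. Without overlap between the groups, 26 members were lower and 5 higher, beside 19.5% of all genes lower and 18.7% higher. As a share, 34.2% of members were lower without overlap, and among the 7753 genes at 20 CPM or more 2650 were, which is nearly the same share. All 8 complex III genes were below 0, from -0.16 to -0.02, and 4 of them did not overlap. Uqcrb, a small subunit of complex III, was the lowest, at 67.3, 65.0 and 73.1 CPM in wild type and 60.8, 62.2 and 60.4 CPM in the deficient libraries (log2 fold change -0.16, edgeR adjusted p 0.0674). Atp5b was at 1410, 1330 and 1400 CPM against 1190, 1290 and 1240 CPM, without overlap, at -0.15 with an edgeR adjusted p of 0.0669. Summed over all members, the deficient libraries held 8442, 8737 and 8668 CPM and the wild-type libraries 8927, 9008 and 9120 CPM. Hand2-deficient replicate 1, the lowest, was the library with 5.37% of its counts on 1 gene.

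The ATP synthase c ring, the turning part of complex V, is built from copies of 1 small protein that 3 genes encode. Their coding sequences end in the same mature protein but differ in their bases, mostly at the last position of a codon. The last 120 coding bases are shown because Atp5g3 and Atp5g2 had fold changes of opposite sign in the Hand2 series, and these bases differ enough for reads of the 3 genes to be told apart by sequence. All 3 genes lie on the minus strand of GRCm38, Atp5g3 at chr2:73908447-73911326, Atp5g1 at chr11:96068852-96075670 and Atp5g2 at chr15:102662864-102672352. Capitals in Atp5g3 mark bases at which either other gene differs, and capitals in the other 2 mark bases that differ from Atp5g3.
Atp5g3: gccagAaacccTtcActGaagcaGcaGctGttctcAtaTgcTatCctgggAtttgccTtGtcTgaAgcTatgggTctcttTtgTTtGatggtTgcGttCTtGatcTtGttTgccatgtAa
Atp5g1: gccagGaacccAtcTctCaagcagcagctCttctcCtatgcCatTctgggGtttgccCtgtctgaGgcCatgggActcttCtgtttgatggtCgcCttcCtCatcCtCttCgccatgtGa
Atp5g2: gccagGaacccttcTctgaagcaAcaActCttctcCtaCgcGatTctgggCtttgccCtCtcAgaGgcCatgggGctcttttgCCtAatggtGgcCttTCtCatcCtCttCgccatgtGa
Atp5g1 differs from Atp5g3 at 22 of these 120 bases, 18 of them last positions of a codon, and Atp5g2 at 28, of which 23 are last positions.

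Per length, Atp5g3 averaged 453 CPM per kb in the Hand2 wild type and 387 in the deficient libraries. Atp5g2 averaged 383 and 408, and Atp5g1 175 and 142. The 441 bases used for Atp5g2 equal its coding length, while Atp5g3 (714 bases) and Atp5g1 (596) exceeded theirs (426 and 411). Atp5g2 exceeded Atp5g3 in the deficient libraries per length alone. In CPM, Atp5g3 stayed above Atp5g2 in both groups, at means of 324 and 276 against 169 and 180. Atp5g3 was at 331, 312 and 328 CPM in wild type and 261, 292 and 275 CPM in the Hand2-deficient libraries. It fell by 0.23 on the log2 scale (SE 0.0528, edgeR adjusted p 0.0420), and the groups did not overlap. Atp5g1 was at 106, 102 and 104 CPM against 74.6, 93.9 and 85.7 CPM, also without overlap, at a log2 fold change of -0.30 (SE 0.0780, edgeR adjusted p 0.0537). Atp5g2 was at 159, 176 and 172 CPM against 170, 183 and 185 CPM, a log2 fold change of 0.09 (95% interval -0.04 to 0.22). In the Tbx3 series the same genes were at -0.06, 0.06 and 0.12. The call of Atp5g3 was lost without replicate 1 or 3 of either group (edgeR adjusted p 0.105 to 0.140), with sex as a covariate (0.0843) and with the replicate number as a block (0.146).

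Ndufa13 (chr8:69894180-69902558, minus strand), a complex I subunit also known as GRIM-19, was at 58.3, 61.5 and 61.1 CPM in wild type and 69.8, 68.1 and 68.5 CPM in the Hand2-deficient libraries. The 3 deficient libraries lay close together and above all wild-type ones, for a log2 fold change of 0.19 (SE 0.0325, edgeR adjusted p 0.0213). The gene lies 12.6 Mb from Hand2 on chromosome 8 and overlaps Tssk6, which held 4.19 to 6.80 CPM over the 12 libraries. Its call was lost without replicate 1 or 3 of either group (edgeR adjusted p 0.0591 to 0.0941), with sex as a covariate (0.0627), in a fit of all 12 libraries (0.0737) and with the block (0.122). Ndufa7 was again on the high side, at 53.8, 53.7 and 52.3 CPM against 60.6, 56.0 and 61.4 CPM, with a log2 fold change of 0.16 and an edgeR adjusted p of 0.0586.

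Cox7a2l (chr17:83501918-83517330, minus strand), also called SCAF1, joins complexes III and IV into supercomplexes. It was at 83.4, 88.0 and 80.6 CPM in wild type and 106, 101 and 109 CPM in the Hand2-deficient libraries. It rose by 0.33 on the log2 scale (SE 0.0444, 95% interval 0.22 to 0.43, edgeR adjusted p 0.0115), and the groups did not overlap. The call was lost without wild-type replicate 3 (0.0604) and with the block (0.0940). In the Tbx3 series it was at 92.4, 88.0 and 90.9 CPM against 89.1, 105 and 93.3 CPM.

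Atp5s, a small factor that the symbol rule catches and that is known as a coupling factor of complex V, had the highest fold change of the Hand2 series. It was at 3.84, 3.25 and 3.52 CPM in wild type and 5.08, 4.37 and 4.65 CPM in the deficient libraries, without overlap, with a log2 fold change of 0.41 and an edgeR adjusted p of 0.0609. Atp5e had the widest spread among the stalk subunits, at 52.2, 79.6 and 56.8 CPM against 82.5, 58.4 and 62.3 CPM. Cox5a, a nuclear subunit of complex IV, was at 122, 117 and 117 CPM against 99.3, 113 and 107 CPM, a log2 fold change of -0.16 with an edgeR adjusted p of 0.0902. Ndufa8, a complex I accessory subunit, was at 51.4, 48.3 and 51.4 CPM against 48.4, 48.0 and 44.3 CPM (-0.10). Cox7a2, Cox8a and Uqcrh lay between -0.07 and -0.03.

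A processed copy of Cox7a2l, Gm6969 (chr12:24638669-24639010, minus strand), shares 16.6% of the 31-base words of the Cox7a2l transcripts. The copy is 99.4% identical to the 336 coding bases of Cox7a2l and holds 6 bases that Cox7a2l lacks in the reference genome, which is that of the C57BL/6J strain. Mouse strains are known to carry Cox7a2l alleles that differ in length at this place. The stretch around the 6 bases is shown, with capitals for bases that differ or are extra.
Cox7a2l: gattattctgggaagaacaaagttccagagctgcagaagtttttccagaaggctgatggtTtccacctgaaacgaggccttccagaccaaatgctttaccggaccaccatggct
Gm6969: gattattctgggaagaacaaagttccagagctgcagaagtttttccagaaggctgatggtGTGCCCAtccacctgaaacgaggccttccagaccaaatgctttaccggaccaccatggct
These are coding bases 154 to 267 of Cox7a2l, counted from the start codon, and the matching bases of the copy. Of the 252 windows of 85 bases, the read length, in the Cox7a2l coding sequence, 133 occur unchanged in Gm6969.

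Gm6969 moved the other way in the Hand2 series. It was at 17.3, 18.1 and 15.3 CPM in wild type and 11.4, 10.8 and 10.6 CPM in the deficient libraries, and fell by 0.63 on the log2 scale (edgeR adjusted p 0.0112). With both genes summed, the log2 fold change was 0.20 and the edgeR adjusted p 0.0423. In the Tbx3 series Gm6969 ranged from 8.52 to 19.5 CPM with overlapping groups. Which Cox7a2l allele each embryo carried was not examined, and its part in the rise was not tested.

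Copies also touched members that the test did not call. Ndufs5, an accessory subunit of complex I, and its processed copy BC002163 (chr16:42955631-42955949) are shown over the first 120 coding bases, with both differences in capitals.
Ndufs5: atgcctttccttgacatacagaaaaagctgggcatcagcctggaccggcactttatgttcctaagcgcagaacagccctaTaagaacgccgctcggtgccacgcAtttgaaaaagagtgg
BC002163: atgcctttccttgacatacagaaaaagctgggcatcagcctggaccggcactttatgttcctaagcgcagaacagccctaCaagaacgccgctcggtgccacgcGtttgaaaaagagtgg
BC002163 was at 11.7, 0.260 and 13.1 CPM in the Tbx3 wild type, at 11.4, 0.284 and 0.111 CPM in the libraries labelled Tbx3-deficient, and at 0.102 to 0.277 CPM in all 6 libraries of the Hand2 series. Ndufs5 was at 33.2, 51.7 and 40.4 CPM and at 34.3, 48.9 and 47.7 CPM in the same 6 libraries of the Tbx3 series. The 3 libraries with 11.4 to 13.1 CPM on the copy were thus the 3 with the lowest Ndufs5, and the sum of both ranged only from 45.0 to 53.5 CPM. The SE of the Ndufs5 fold change was 0.180 in the Tbx3 comparison, against 0.0374 in that of Hand2.

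Gm10039, a copy of Atp5g1, and Gm5436, a copy of Atp5o, also differed between libraries of 1 group. Gm10039 was at 10.9, 0.390 and 6.15 CPM in the Tbx3 wild type, where Atp5g1 was at 81.9, 109 and 92.1 CPM. In the Hand2 series it was highest in deficient replicate 1 at 3.40 CPM, and the library with the lowest Atp5g1 at 74.6 CPM was the same. With the copy summed, Atp5g1 had a log2 fold change of -0.28 and an edgeR adjusted p of 0.0435 in the Hand2 series. Gm5436 was at 7.08, 0.247 and 3.91 CPM in the Hand2 wild type and 0.0849, 0.152 and 3.75 CPM in the deficient libraries.

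Gm15920, a copy of the complex I accessory gene Ndufa12 that shares 20.2% of its words, fell by 1.11 on the log2 scale in the Hand2 series (edgeR adjusted p 0.00603). It was at 11.8, 10.7 and 11.9 CPM in wild type and 4.38, 5.77 and 5.73 CPM in the deficient libraries. Ndufa12 alone was at 59.9, 63.3 and 65.5 CPM against 62.2, 61.2 and 62.1 CPM, a log2 fold change of -0.02 that was not called. The sum of both fell by 0.15 (edgeR adjusted p 0.0464), so the call rests on the copy being counted in. Gm10175, a copy that shares 37.5% of the words of Atp5g2, was at 23.1, 15.4 and 26.7 CPM against 22.0, 13.5 and 16.5 CPM, with overlapping groups. With it summed, the log2 fold change of Atp5g2 was 0.05.

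Ndufb4, the common complex I subunit with the lowest level per length, has a copy that took most of the reads. The coding sequence of Ndufb4c (chr15:73809507-73809896) is the same as that of Ndufb4 over all 390 bases, so no read inside it tells them apart. Ndufb4c was at 22.6 to 30.0 CPM and Ndufb4 at 7.01 to 9.01 CPM over the 12 libraries. The log2 fold change of the sum was 0.07 for Tbx3 and -0.04 for Hand2. Across all members, 19 had an annotated pseudogene sharing at least 5% of their words, and 7 such pseudogenes reached 2 CPM in any library.

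**Figure D5:**
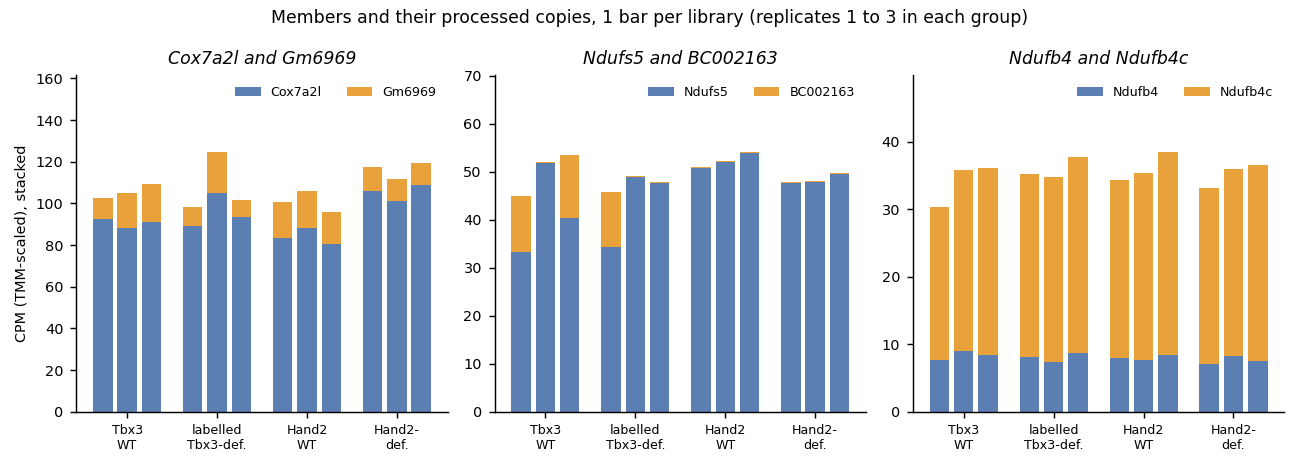
CPM of Cox7a2l, Ndufs5 and Ndufb4 (blue) with the CPM of their processed copies stacked on top (orange), 1 bar per library in the order of replicates 1 to 3. Gm6969 is lower in the Hand2-deficient libraries, BC002163 appears in 3 libraries of the Tbx3 series, and Ndufb4c exceeds Ndufb4 in all 12 libraries.

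Among the other pathway genes of the Hand2 series, single members of several lists fell. Among the 7753 genes at 20 CPM or more, 840 were called lower and 272 higher, and the counts of the lists stand beside these. Cycs, the somatic cytochrome c that carries electrons from complex III to IV, was at 184, 172 and 190 CPM in wild type and 132, 155 and 142 CPM in the deficient libraries, and fell by 0.34 on the log2 scale (edgeR adjusted p 0.0317). Sdhb of complex II fell by 0.14, and it was 1 of 4 complex II genes. Of 4 subunit genes that the symbol rule misses, Cyc1 of complex III and Ndufab1 of complex I fell, by 0.19 and 0.17. Of 16 regulators of mitochondrial biogenesis 3 fell, Yy1 by 0.21, Pprc1 by 0.33 and Nrf1 by 0.16, and 0 rose. Of 78 mitochondrial ribosomal protein genes 8 fell and 0 rose, at a median of -0.10, a share near that of the 840 among 7753. Of 16 complex I assembly factors Ndufaf4 fell, by 0.37, and 0 of 6, 23 and 3 assembly factors of complexes III, IV and V were called. Of the 13 mitochondrially encoded subunits 1 rose, mt-Nd3, from 71.5, 82.7 and 80.9 CPM to 140, 231 and 199 CPM, and their median was 0.07. Of 14 HIF response genes 1 rose, Adm, and 1 fell, Lonp1. Pericyte markers summed to 310 to 351 CPM in wild type and 366 to 447 CPM in the deficient libraries, with 3 of 5 tested higher. Macrophage markers summed to 3.02 to 5.02 CPM against 6.11 to 11.6 CPM, with 2 of 7 higher, and muscle progenitor markers to 104 to 120 CPM against 134 to 138 CPM, with 0 of 5 called. Endothelial markers summed to 220 to 223 CPM against 233 to 255 CPM, with Cdh5 called higher, and epithelial markers to 172 to 205 CPM against 156 to 171 CPM, with Fgf8 called lower. Of 6 limb mesenchyme markers Twist1 and Prrx2 were called higher, at sums of 1480 to 1640 CPM against 1610 to 2010 CPM, and of 3 body wall markers Gata4 was, at sums of 5.08 to 25.5 CPM against 19.4 to 42.4 CPM. Their part in the values of the members was not tested.

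The difference between the effects of the 2 series, coded as the Hand2 value less the Tbx3 value, came from 1 fit of all 12 libraries. edgeR's test called 0 of 76 members, against 1.68% of all 17360 genes tested, and 6 of 76 had an unadjusted p under 0.05, against 17.4% of all genes. DESeq2 called 2, which are Cox4i2 and Ndufv3, beside 859 of all 17360 genes. Cox4i2 differed by -1.05 (95% interval -1.67 to -0.42, edgeR adjusted p 0.102), and in the Hand2 series it was at 3.29, 3.70 and 2.66 CPM in wild type and 3.16, 3.06 and 3.65 CPM in the deficient libraries. Ndufv3 differed by -0.40 (edgeR adjusted p 0.129) and Cox7a2l by 0.24 (edgeR adjusted p 0.184). Without replicate 1 of the libraries labelled Tbx3-deficient, Cox4i2 and Ndufv3 passed, with edgeR adjusted p of 0.0427 and 0.00626.

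Promoter sequences, which the rule did not use, were searched for short motifs. RefSeq promoters of the GRCm38.p6 build, from 250 bases before to 50 after the start, were matched for 65 of 80 members, 63 by symbol and 2 by synonym, in 70 windows. Cox4i2 and Ndufa4l2 were among the members without a match, so their promoters were not searched. The core of the palindromic NRF1 site, GCGCANGCG on either strand, was in 27.1% of the 70 windows and in 6.25% of all 32851 windows. CCGGAAG, an ETS site as bound by the Gabpa product, was in 20% against 8.86%, and AAGATGG, the core of the YY1 site, in 15.7% against 6.34%, both counted on both strands. ACGTG, the HIF core, was in 25.7% against 19.6%, the T-box letters AGGTGTGA in 0 windows against 1.28%, and CATCTG, an E-box bound by HAND2, in 11.4% against 17.2%. Motifs may overlap each other, and a match is a run of letters and not a bound site. The 18 members whose windows hold the NRF1 letters include Atp5g2 and Atp5g3. Cox6a1 and Ndufs5 are printed over the 250 bases before the start, minus strand, chr5:115348959-115349208 and chr4:123718187-123718436, as members whose matches lie upstream of the start. Capitals mark the NRF1 letters.
Cox6a1: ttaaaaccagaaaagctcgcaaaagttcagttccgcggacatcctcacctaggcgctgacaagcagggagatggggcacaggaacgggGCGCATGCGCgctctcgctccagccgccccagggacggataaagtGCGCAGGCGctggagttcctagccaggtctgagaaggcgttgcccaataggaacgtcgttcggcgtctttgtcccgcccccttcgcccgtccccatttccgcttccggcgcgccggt
Ndufs5: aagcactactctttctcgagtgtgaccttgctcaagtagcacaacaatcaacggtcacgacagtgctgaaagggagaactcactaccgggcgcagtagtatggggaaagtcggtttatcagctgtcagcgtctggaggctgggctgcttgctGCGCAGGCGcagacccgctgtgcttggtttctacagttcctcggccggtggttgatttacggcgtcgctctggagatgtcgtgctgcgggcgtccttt
Cox6a1 holds 3 matches, of which the first 2 overlap on opposite strands, and Ndufs5 holds 1.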

How the data were processed

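RNA from whole forelimb bud pairs was sequenced as 85 bp single-end reads, in 12 libraries. The deposited values are expected counts per gene, which the authors made with STAR 2.5.2 and RSEM 1.3.0 on mm10, with FastQC 0.11.4 as a read check, per the submitters' processing notes. Between 12.5% and 16.2% of values per library were not whole, and all were rounded. Strand use in counting is not given in the sources used here.

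Genes were filtered with filterByExpr (minimum count 10, total 15), scaled by TMM and tested with edgeR 4.0.16 (quasi-likelihood F test, Benjamini-Hochberg adjustment over all genes, R 4.3.3), each series in its own fit. limma 3.58.1 (voom) and DESeq2 1.42.0 served as alternatives. On simulated counts, 72.0% of 50 genes changed 1.5-fold were called for Tbx3 and 74.0% for Hand2. The genes changed there had a mean of at least 5 CPM, so these rates do not cover rarer genes. Embryos are separate libraries, so n counts embryos.

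Sequence sharing between genes was measured as shared 31-base words of GENCODE M21 transcripts on GRCm38, the source of the printed coding sequences. Members and lists were chosen with earlier results of these data known. Members named with values were those called, the 3 highest and 3 lowest per comparison whose higher group averaged 5 CPM or more, fixed isoform pairs, the highest of each complex per length, and members within 10 Mb of Tbx3 or Hand2. Atp5a1, Atp5g2, Atp5s, Cox5a, Cox7b, Ndufa12, Ndufa6, Ndufa7, Ndufb4, Ndufs5, Ndufs8, Ndufv1 and Ndufv2 were named after their values were seen, as were the copies. The NRF1 letters were shortened by 1 base after a first search.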

Additional observations from a re-analysis of the deposited data

How the results depend on the processing

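For the members named, 254 of 285 values of the Tbx3 series, 270 of 299 of the Hand2 series and 136 of 140 of the difference kept direction and side of the threshold. In the Tbx3 series 0 members were called, but 3 in a fit of all 12 libraries, 3 with DESeq2 and 3 without a filter on low counts. Leaving out 1 library gave 0 to 3, with 3 reached without replicate 1 of the libraries labelled Tbx3-deficient. In the Hand2 series 3 were called, against 10 with DESeq2, 1 with sex as a covariate, 5 with pseudogenes at 5% shared words summed (chosen after seeing the data), and 0 to 6 without 1 library. For the difference 0 were called, against 2 with DESeq2 and 0 to 2 without 1 library. Beside these counts, DESeq2 called 551 of all 15130 genes for Tbx3, 3451 of 17488 for Hand2 and 859 of 17360 for the difference.

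With the replicate number as a block, 0 Hand2 members were called, and the count over all genes went from 1836 to 161. For Tbx3 that count went from 153 to 87. Same-numbered libraries correlated at 0.0741, 0.0131 and -0.00797 in the Tbx3 series and at -0.128, 0.0310 and 0.0275 in the Hand2 series. Those with different numbers ran from -0.115 to 0.103 and from -0.151 to 0.13, so the correlations show no pairing by number. Whether the numbers stand for a shared litter or batch was not tested.

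Over all genes, 153 calls of the Tbx3 series became 551 with DESeq2, 504 with no filter, 422 in the fit of 12 libraries, 99 with voom, 22 with sex, and 23 to 220 without 1 library. The 1836 calls of the Hand2 series became 3451 with DESeq2, 526 with sex, and 218 to 2223 without 1 library. The 292 of the difference became 859 with DESeq2, 69 with the block, and 123 to 336 without 1 library.

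None of the values that reversed was called. For Tbx3, Atp5b was 0.00 with no filter and 0.06 with sex, Cox4i1 0.02, Cox6b2 0.12 and Cox7a2 0.00 with sex. Without 1 library the Tbx3 values ran from -0.03 to 0.04 for Atp5b, -0.02 to 0.18 for Atp5g1, -0.05 to 0.03 for Cox4i1, -0.15 to 0.13 for Cox6b2, -0.04 to 0.03 for Cox7a2, -0.07 to 0.08 for Ndufa4, -0.26 to 0.01 for Ndufs6 and -0.08 to 0.01 for Uqcrh. The Hand2 values ran from -0.06 to 0.31 for Atp5e, -0.09 to 0.14 for Cox4i2, -0.11 to 0.03 for Ndufs6, -0.00 to 0.05 for Ndufv3 and -0.08 to 0.01 for Uqcrh. The causes were not tested.

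Every Tbx3 library is shallower than every Hand2 library, and 1 labelled library alone shares the sex of the Tbx3 wild type. The widest SE of the Tbx3 fold changes were those of Ndufa4l2 (0.276) and Cox7b (0.269), and of the Hand2 ones those of Cox7a1 (0.369) and Ndufa4l2 (0.291).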
